A study of Homo sapiens with 9 samples.

Results

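The genes of FOLH1, which encodes prostate-specific membrane antigen (PSMA), and of 7 other cell-surface proteins known from the prostate were followed in LNCaP cells with and without the long noncoding RNA EPCART. The 8 genes, FOLH1, STEAP1, STEAP2, STEAP4, PSCA, TMEFF2, HPN and TRPM8, were taken by symbol from the 19984 gene identifiers of the normalized count table, and each was found with an average of at least 1 normalized count in every comparison. LNCaP cells are a human line from a metastasis of prostate cancer and respond to androgen. Both clones without EPCART, called del-4 and del-56, carry a CRISPR-Cas9 deletion of the EPCART promoter with its exons 1 and 2, and they were compared with a wild-type (WT) clone that was also carried through the CRISPR-Cas9 procedure, per the labels. All 9 cultures, 3 per clone, were kept for 48 h in RPMI medium with serum, with no drug or hormone added, and gave 1 strand-specific polyA library each. Each genotype is therefore represented by 1 or 2 clones, so that a difference between a deletion clone and WT cannot be told apart from a difference between 2 clones of the line. EPCART itself was not analysed here, since the table lists protein-coding genes.

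Surface antigens of the prostate are used to image and to treat prostate cancer. PSMA is a membrane-bound carboxypeptidase that cleaves glutamate from folate and from a neuropeptide, and it is the target of radioligands. The STEAP proteins are membrane metalloreductases of iron and copper, PSCA is a small lipid-anchored protein of the LY6 family, TMEFF2 is a transmembrane protein with follistatin and EGF-like domains, hepsin (HPN) is a membrane serine protease, and TRPM8 is a cold- and menthol-sensitive calcium channel. In prostate cells several of these genes respond to androgen, FOLH1 by repression, TRPM8 and STEAP4 by induction.

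Most of the 8 genes were lower without EPCART, and TRPM8 was the clear exception. FOLH1, STEAP1, STEAP2, PSCA and TMEFF2 were lower than in WT in both deletion clones, while TRPM8 was about 2.02-fold higher in del-4 and 2.50-fold higher in del-56. HPN and STEAP4 passed the test in del-4 and not in del-56, in opposite directions and by calls that depended on single libraries. Summed over the 8 genes, the counts made up 0.143% ± 0.0031 of all normalized counts in WT, 0.109% ± 0.0013 in clone del-4 and 0.107% ± 0.0011 in clone del-56 (SD, n = 3). FOLH1 alone held 45.8% of that sum in WT, 45.0% in clone del-4 and 39.0% in clone del-56.

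The size of these counts has to be read against the whole table. A gene was called when limma, run on log2 of the normalized count plus 1, gave a Benjamini-Hochberg adjusted p under 0.05 over all genes tested. In del-4 against WT, 40.7% of 17401 genes were called, 20.5% as higher and 20.2% as lower, and of the 8 genes 2 were called higher and 6 lower. In del-56 against WT, 39.7% of 17481 genes were called, 19.2% as higher and 20.5% as lower, and of the 8 genes 1 was called higher and 5 lower. Between the deletion clones, 19.9% of 17447 genes were called, 10.9% as higher in del-4 and 9% as lower, against 2 and 3 of the 8. The median log2 fold change of the 8 genes was -0.33 for del-4 and -0.29 for del-56, beside a median over all genes tested of -0.003 and -0.001. The del-4 and del-56 comparisons share the WT libraries. When each library was scaled to the same total instead, 32.4% rather than 50.3% of the called genes were higher in del-4 than in WT, 40.7% rather than 48.4% were higher in del-56, and 36.7% rather than 54.7% were higher in del-4 than in del-56, and the median of all genes in del-4 then stood at -0.072. With the thresholds of the study, which ask for an unadjusted p below 0.05 with a log2 fold change past 1, 5.82% of genes passed in del-4 and 5.94% in del-56 against WT, and of the 8 genes TRPM8 passed in both clones and STEAP4 in del-4. Between the deletion clones 4.28% of genes passed, and of the 8 STEAP4 did. By position alone, the libraries of the clones compared did not overlap for 49.5% of genes in del-4 against WT, 48.7% in del-56 against WT and 34.7% between the deletion clones, and for 8, 7 and 6 of the 8 genes.

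The reads counted on genes summed to 91074556 to 118877134 per library, so counting error was small for all members but STEAP4. The sum over genes need not be a number of distinct reads. The cells had the profile of luminal prostate cells in each clone. All 11 luminal markers, KLK3, KRT8 and KRT18 among them, averaged at least 10 normalized counts, and their sum ranged from 335219 to 360120 over the 9 libraries. Summed immune markers ranged from 557 to 588 in del-4, 537 to 580 in del-56 and 488 to 536 in WT, with CD68 the highest and CD3E and MS4A1 at no more than 3 in every library. Summed endothelial markers ranged from 292 to 335 in del-4, 517 to 735 in del-56 and 596 to 624 in WT, nearly all from VWF, with CDH5 at no more than 3. Summed basal markers ranged from 2028 to 2245 in del-4, 2260 to 2537 in del-56 and 1939 to 2047 in WT, mostly from DST, with KRT5 at no more than 3, and ITGB4, NGFR and DST were called higher in del-56. Summed stromal markers ranged from 2538 to 2974 in del-4, 2806 to 3119 in del-56 and 2451 to 2622 in WT, with COL1A1 the highest. COL1A1 was called higher in both clones and LUM and ACTA2 in del-56, while COL3A1 was called lower in del-56. Summed neuroendocrine markers ranged from 2481 to 2648 in del-4, 1777 to 1920 in del-56 and 1773 to 1954 in WT, mostly from ENO2, with CHGB and INSM1 at no more than 3. ENO2 (0.53 on the log2 scale, limma adjusted p = 4.6e-07) and SCG3 were called higher and SYP lower in del-4. SRRM4 and CD14 were called higher in del-56, at means of only 16.9 and 6.78 normalized counts over the 9 libraries. SCG3 averaged 10.9 over the same libraries. The libraries overlapped for SRRM4 in del-56 and WT and for SYP in del-4 and WT. VWF was called lower in del-4, by a log2 fold change of -0.97 (limma adjusted p = 1.5e-06). The del-56 sums of basal, stromal and immune markers lay above WT without overlap. In del-4 the immune and neuroendocrine sums lay above WT and the endothelial sums below it, again without overlap. The part of these levels in the results was not tested. In RNA from whole cultures, fewer cells that express a gene and less RNA per cell cannot be told apart.

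**Figure D1:**
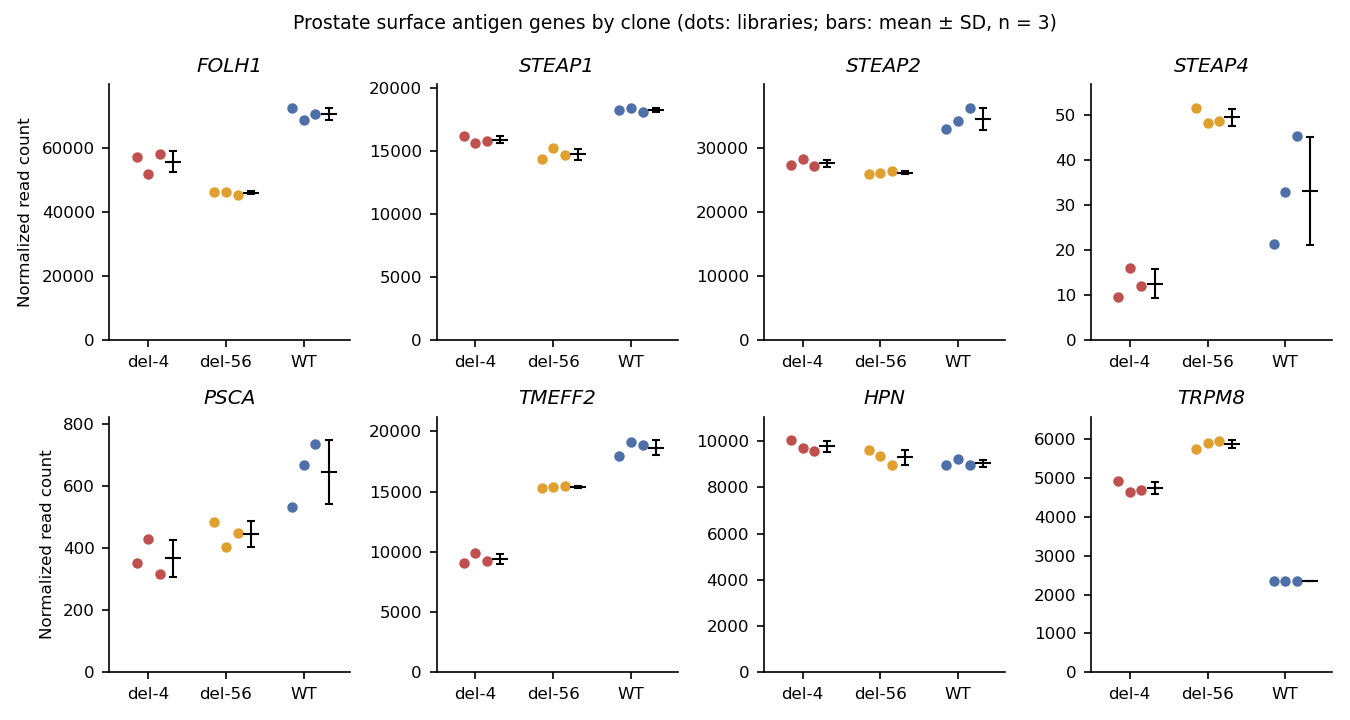
Normalized read counts (vertical axes, from 0) of the 8 genes in the 9 libraries, grouped by clone on the horizontal axes. Dots are libraries and bars give the mean ± SD (n = 3). The WT dots lie above all deletion dots for FOLH1, STEAP1, STEAP2, PSCA and TMEFF2 and below them for TRPM8, and they overlap those of del-56 for HPN alone.

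**Figure D2:**
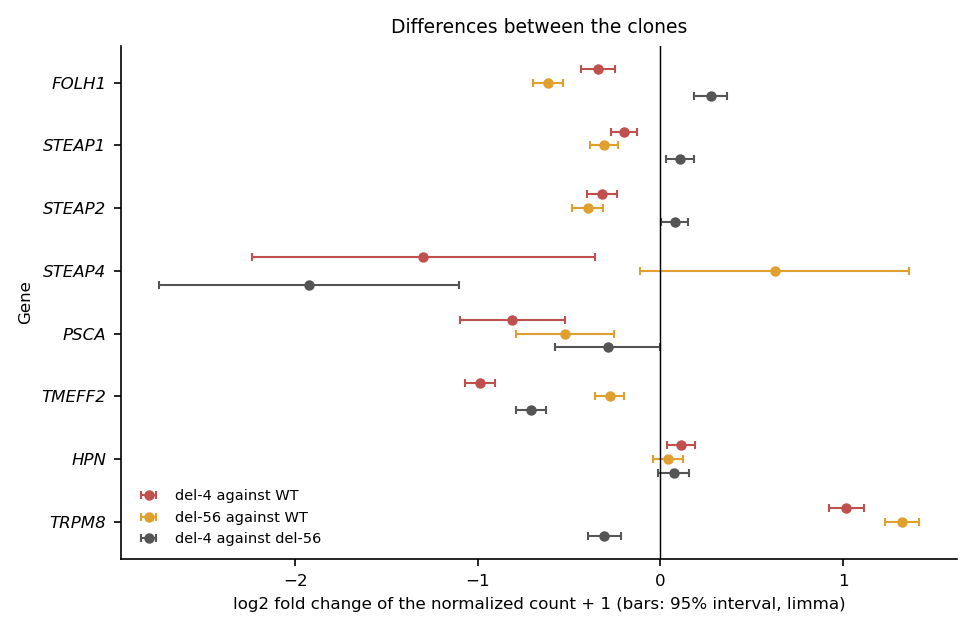
Log2 fold changes of the 8 genes (horizontal axis, on the scale of log2 of the normalized count plus 1) for del-4 against WT, del-56 against WT and del-4 against del-56, with 95% intervals from limma as bars. The TRPM8 intervals against WT lie above 0 in both clones, those of FOLH1, STEAP1, STEAP2, PSCA and TMEFF2 lie below 0, and STEAP4 has the widest intervals.

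FOLH1 was the most abundant of the 8 genes as a count in each clone, and per kilobase of exon in WT and del-4. In del-56, STEAP1 was above it per kilobase, at 9545 against 8613. It lies on chromosome 11 at 49145092-49208638 of GRCh38, on the minus strand (ENSG00000086205.18). Its normalized count was 72455, 68501 and 70430 in the WT libraries, 57019, 51801 and 58178 in clone del-4 and 46260, 46186 and 45402 in clone del-56. The 3 clones did not overlap: every WT library lay above every del-4 library, and every del-4 library above every del-56 library. The mean fell from 70462 ± 1977 in WT to 55666 ± 3397 in del-4 and to 45949 ± 476 in del-56 (SD, n = 3). The log2 fold change was -0.34 (SE 0.044, limma adjusted p = 5.9e-06) in del-4 and -0.62 (SE 0.038, limma adjusted p = 4.1e-09) in del-56, so that the level fell by 21.1% and by 34.8%. Del-4 was higher than del-56 by 0.27 on the log2 scale (95% interval 0.18 to 0.37, limma adjusted p = 0.00014). Per kilobase of annotated exon, the FOLH1 level was 13208 in WT, 10434 in clone del-4 and 8613 in clone del-56, which placed it at rank 376, 488 and 586 of 19905 genes. FOLH1 thus stayed among the most abundant transcripts of the line in each clone. The FOLH1B pseudogene, which is close to FOLH1 in sequence, was not analysed here, so reads that the 2 copies could share cannot be separated.

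The relatives of FOLH1 in the M28 peptidase family were less abundant or moved less. Of 5 relatives tested, 3 were lower in del-4, where 20.2% of all genes were, 2 in del-56, where 20.5% were, and none was higher. TFRC, the transferrin receptor, fell by 0.25 and 0.20 on the log2 scale (limma adjusted p = 1.8e-05 and 4.7e-04), and NAALADL2 fell by 0.24 and 0.16 (limma adjusted p = 9.9e-05 and 0.0050). NAALAD2, a glutamate carboxypeptidase like FOLH1, averaged 391 normalized counts in WT, 431 in clone del-4 and 471 in clone del-56, with log2 fold changes of 0.15 and 0.27 that did not pass (limma adjusted p = 0.36 and 0.088). TFR2, the other transferrin receptor, was lower in del-4 by a log2 fold change of -0.78 (limma adjusted p = 0.036) from a low WT level of 70.2, and stood at -0.15 in del-56 (limma adjusted p = 0.72).

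Among 12 genes of folate uptake and use, whose substrate PSMA processes outside the cell, 5 were called higher and 1 lower in del-4, where 40.7% of all genes were called, and 4 higher and 2 lower in del-56, where 39.7% were. The mitochondrial serine hydroxymethyltransferase SHMT2 rose by 0.40 and 0.23 (limma adjusted p = 7.4e-08 and 8.6e-05). The cytosolic enzyme SHMT1 rose by 0.14 and 0.10 (limma adjusted p = 0.0060 and 0.042), and MTHFD1, which interconverts folate forms, fell by 0.15 and 0.11 (limma adjusted p = 0.0021 and 0.017). Over all 12 genes the median log2 fold change was 0.092 for del-4 and 0.053 for del-56, beside -0.003 and -0.001 over all genes tested.

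STEAP1 and STEAP2 lie side by side on chromosome 7 and were both lower in the deletion clones. STEAP1 (ENSG00000164647.9, plus strand) spans 90154456-90164829 and STEAP2 (ENSG00000157214.14, plus strand) spans 90167590-90238137, 2760 bases further on. STEAP4 (ENSG00000127954.13, minus strand) is at 88270892-88306894 on the same chromosome, 1847561 bases before STEAP1. STEAP1, which lacks a reductase domain of its own, forms complexes with the other STEAP proteins, while STEAP2 and STEAP4 reduce iron and copper themselves.

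STEAP1 had 18212, 18408 and 18064 normalized counts in WT, 16167, 15605 and 15812 in clone del-4 and 14342, 15199 and 14670 in clone del-56. No library of one clone fell among those of another. The log2 fold change was -0.20 (SE 0.033, limma adjusted p = 9.5e-05) in del-4 and -0.31 (SE 0.036, limma adjusted p = 5.4e-06) in del-56, and the SD within clones was 172 to 433 normalized counts. The difference between the deletion clones, 0.11 on the log2 scale (95% interval 0.029 to 0.18, limma adjusted p = 0.049), did not pass under 10 of 14 alternatives, among them the same total, at 0.066 (limma adjusted p = 0.22). It was also lost without del-4 replicate 1, 2 or 3 and without del-56 replicate 1 or 3, at 0.087 to 0.12 (limma adjusted p = 0.055 to 0.17).

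STEAP2 had 32974, 34353 and 36350 normalized counts in WT, 27446, 28278 and 27290 in clone del-4 and 26057, 26181 and 26409 in clone del-56. All WT libraries were above all deletion libraries, and del-4 lay above del-56 without overlap. STEAP2 fell with a log2 fold change of -0.32 (SE 0.039, limma adjusted p = 2.8e-06) in del-4 and -0.40 (SE 0.040, limma adjusted p = 1.0e-06) in del-56. The deletion clones differed by 0.078 (95% interval 0.0054 to 0.15, limma adjusted p = 0.13), which did not pass the adjusted threshold. Per kilobase of exon, STEAP1 was the more abundant of the pair, with a level of 11806 against 3963 in WT. The ratio of the STEAP2 count to the STEAP1 count was 1.90 ± 0.10 in WT, 1.75 ± 0.060 in clone del-4 and 1.78 ± 0.050 in clone del-56 (SD, n = 3), and the WT libraries overlapped those of each deletion clone, so the neighbours kept close proportions. The antisense RNA STEAP2-AS1 overlaps both genes on the other strand. The libraries were strand-specific, but the strand setting of the counting is not given in the sources used here.

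The windows of 250 bases before the RefSeq starts of STEAP1 and STEAP2 (GRCh38.p14) are printed because these neighbours were lower together. The STEAP1 window is chr7:90154219-90154468 and the STEAP2 window chr7:90211490-90211739, both on the plus strand. The latter lies inside the longer GENCODE span of STEAP2, and RefSeq lists 2 starts for the gene. Capitals mark a GC box, GGGCGG on either strand, which 42.5% of 34943 promoter windows of the same length hold. STEAP1 had none of the 7 motifs searched.
STEAP1: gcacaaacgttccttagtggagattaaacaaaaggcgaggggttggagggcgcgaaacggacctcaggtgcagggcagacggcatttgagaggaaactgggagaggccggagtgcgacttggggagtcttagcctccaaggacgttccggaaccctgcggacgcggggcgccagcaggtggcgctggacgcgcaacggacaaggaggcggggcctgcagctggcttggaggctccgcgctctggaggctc
STEAP2: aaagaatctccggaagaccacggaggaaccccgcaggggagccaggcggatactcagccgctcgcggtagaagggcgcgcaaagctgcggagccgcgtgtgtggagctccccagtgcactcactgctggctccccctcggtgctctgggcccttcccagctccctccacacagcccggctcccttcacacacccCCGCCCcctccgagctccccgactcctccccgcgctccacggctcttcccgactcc
Both windows were rich in G and C, at 64.4% and 69.6%, with 21 CpG each, against a median of 58% and 11 over all promoter windows.

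STEAP4, the family member best known from inflammation and adipose tissue, had few reads in each clone. Its normalized count was 21.3, 32.8 and 45.2 in WT, 9.60, 15.9 and 12.1 in clone del-4 and 51.5, 48.2 and 48.5 in clone del-56. The WT libraries spread over more than their own lowest value, del-4 lay below them and del-56 above them. The log2 fold change in del-4 was -1.30 (SE 0.45, limma adjusted p = 0.027). That call was lost with quantile normalization, at -1.13 (limma adjusted p = 0.052), without del-4 replicate 1, at -1.13 (limma adjusted p = 0.078), without del-4 replicate 3, at -1.28 (limma adjusted p = 0.059), without WT replicate 2, at -1.27 (limma adjusted p = 0.077), and without WT replicate 3, at -1.05 (limma adjusted p = 0.13). In del-56 the log2 fold change of 0.63 (95% interval -0.11 to 1.36, limma adjusted p = 0.17) did not pass. The deletion clones differed from each other by -1.92 on the log2 scale (SE 0.39, limma adjusted p = 0.0017), del-4 being the lower, and this held under every alternative run. A noncoding RNA on the other strand, ENSG00000228113, overlaps STEAP4 over 33476 bases.

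The 2 further STEAP genes moved in different directions from each other. STEAP1B, a close relative of STEAP1 on chromosome 7 at 22419444-22727613, was higher in both deletion clones, with 14629 ± 431 normalized counts in WT, 19462 ± 967 in clone del-4 and 19046 ± 266 in clone del-56 (SD, n = 3). It rose by 0.41 on the log2 scale in del-4 (limma adjusted p = 2.0e-07) and by 0.38 in del-56 (limma adjusted p = 6.1e-07). The ratio of the STEAP1B count to the STEAP1 count rose from 0.803 ± 0.022 in WT to 1.23 ± 0.048 in del-4 and 1.29 ± 0.040 in del-56, with no overlap between WT and the deletion clones. STEAP1B and STEAP1 resemble each other in sequence, so the split of reads between them is uncertain. The STEAP1B span also contains EEF1A1P6, a processed pseudogene of the elongation factor EEF1A1 that covers 1384 bases. EEF1A1, looked up after these values were seen, rose by 0.30 on the log2 scale in del-4 (limma adjusted p = 0.0051) and by 0.23 in del-56 (limma adjusted p = 0.035), and its part in the STEAP1B counts was not tested. STEAP3, a ferrireductase of endosomes, fell by 0.14 in del-4 (limma adjusted p = 0.036) and stood at -0.16 in del-56 (limma adjusted p = 0.053).

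**Figure D3:**
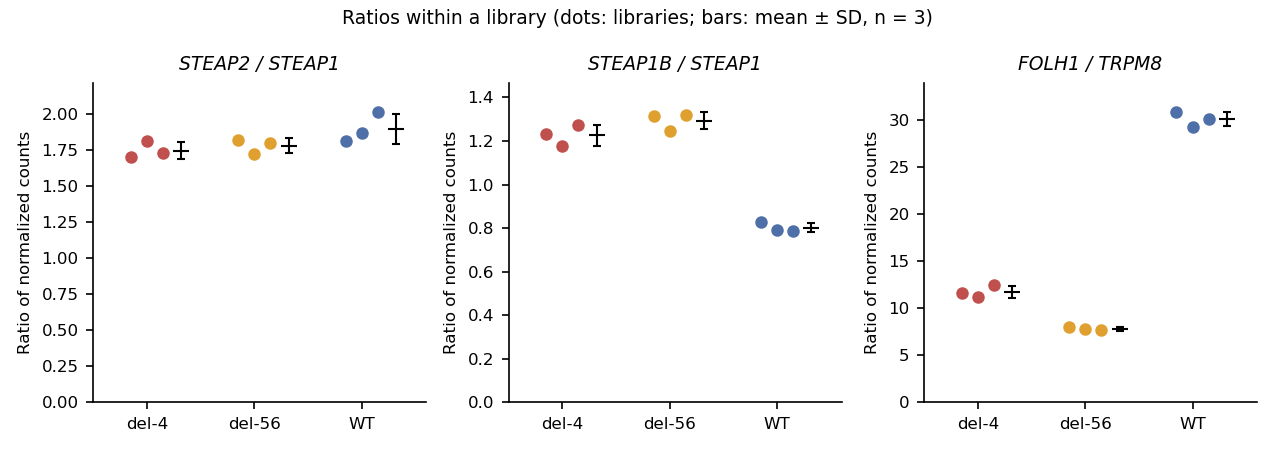
Ratios of normalized counts within each library (vertical axes, from 0) for STEAP2 to STEAP1, STEAP1B to STEAP1 and FOLH1 to TRPM8, by clone on the horizontal axes. Dots are libraries and bars the mean ± SD (n = 3). The STEAP2 to STEAP1 ratio stays between 1.70 and 2.01, with WT overlapping the deletion clones by its lowest library alone. The STEAP1B to STEAP1 ratio is above 1 in each deletion library and below 1 in WT. The FOLH1 to TRPM8 ratio is highest in WT.

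Genes of iron and copper handling, the metals that STEAP reductases act on, showed no common direction. In del-4, 5 of 14 were called higher and 2 lower, where 40.7% of all genes were called. In del-56, 3 of 13 were higher and 5 lower, where 39.7% were called. SLC40A1, which encodes the iron exporter ferroportin, averaged 148 normalized counts in WT and had 0 to 8 reads in the del-4 libraries and 0 reads in each del-56 library. Against a floor of 3 reads per library, the SLC40A1 level in del-56 was at least 46.7-fold lower than in WT. HEPH, the ferroxidase hephaestin, rose by 0.71 in each clone (limma adjusted p = 0.035 and 0.027). The ferritin light chain gene FTL rose by 0.58 in del-4 and 0.13 in del-56 (limma adjusted p = 5.2e-09 and 0.025), while the heavy chain gene FTH1 rose by 0.40 in del-4 (limma adjusted p = 8.5e-06) and fell by 0.18 in del-56 (limma adjusted p = 0.0063).

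PSCA, a glycolipid-anchored protein of prostate and gastric epithelium, was lower in both deletion clones. It lies on chromosome 8 at 142670308-142682725, on the plus strand (ENSG00000167653.5). The normalized count was 532, 668 and 734 in WT, 353, 430 and 316 in clone del-4 and 486, 403 and 450 in clone del-56. All deletion libraries lay below the lowest WT library, while del-4 and del-56 overlapped. PSCA fell with a log2 fold change of -0.81 (SE 0.14, limma adjusted p = 1.1e-04) in del-4 and -0.52 (SE 0.13, limma adjusted p = 0.0037) in del-56, and the difference between the clones of -0.29 (95% interval -0.58 to -0.0036, limma adjusted p = 0.15) did not pass. PSCA shares 11661 bases with JRK on the opposite strand, a gene with 3155, 3145 and 3320 mean normalized counts in del-4, del-56 and WT. JRK had log2 fold changes of -0.073 and -0.078 (limma adjusted p = 0.25 and 0.24), smaller than those of PSCA, but without the strand setting reads of the shared stretch cannot be assigned to one or the other.

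Among other LY6/uPAR family genes, 2 of 10 were called higher and 2 lower in del-4, where 40.7% of all genes were called. In del-56, 0 of 12 were higher and 1 lower, where 39.7% were called. LYNX1, a modulator of nicotinic acetylcholine receptors that lies near PSCA, fell by 0.52 and 0.43 on the log2 scale (limma adjusted p = 9.6e-07 and 2.6e-05). LYPD6B rose by 1.93 in del-4 (limma adjusted p = 4.5e-05) from 26.9 normalized counts in WT and stood at 0.33 in del-56 (limma adjusted p = 0.53). LYPD6, a regulator of Wnt signalling, rose by 0.95 in del-4 (limma adjusted p = 0.0041) and stood at -0.91 in del-56 (limma adjusted p = 0.093). SLURP1, a secreted relative, had log2 fold changes of 0.33 and 0.56 that did not pass (limma adjusted p = 0.50 and 0.22).

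TMEFF2 showed the largest gap between the deletion clones among the abundant members. The gene lies on chromosome 2 at 191949043-192194933, on the minus strand (ENSG00000144339.12). Its normalized count was 17949, 19169 and 18862 in WT, 9089, 9881 and 9254 in clone del-4 and 15299, 15385 and 15439 in clone del-56. The clones formed 3 separate levels, with del-4 far below the others. The mean fell by 49.6% in del-4 (log2 fold change -0.99, SE 0.040, limma adjusted p = 1.6e-12) and by 17.6% in del-56 (log2 fold change -0.28, SE 0.037, limma adjusted p = 1.8e-05). Del-4 was lower than del-56 by a log2 difference of -0.71 (95% interval -0.79 to -0.63, limma adjusted p = 3.2e-10). FOLH1 and TMEFF2 thus fell in both clones but with the order of the deletion clones exchanged. The antisense RNA CAVIN2-AS1 overlaps TMEFF2, and its sense neighbour CAVIN2 had 20.4, 10.6 and 10.8 mean normalized counts in del-4, del-56 and WT.

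The TMEFF2 window of 250 bases before the RefSeq start, chr2:192194934-192195183 of GRCh38.p14 on the minus strand, is shown because TMEFF2 fell the most among the abundant members in del-4. Capitals mark a CCAAT box at positions -71 to -67 and a GC box at -34 to -29, counted back from the start. CCAAT is held by 32.04% of promoter windows on either strand.
TMEFF2: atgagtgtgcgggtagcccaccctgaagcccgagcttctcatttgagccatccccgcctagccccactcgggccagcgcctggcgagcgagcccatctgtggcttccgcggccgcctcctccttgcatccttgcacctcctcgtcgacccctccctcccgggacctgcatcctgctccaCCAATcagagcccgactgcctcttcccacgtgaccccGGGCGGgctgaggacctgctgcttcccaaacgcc
The window had 67.6% G and C and 18 CpG.

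Of 10 genes tied to TMEFF2 by descent or as ligands and receptors of the activin, EGF and PDGF families, 3 were called higher and 2 lower in del-4, and 2 higher and 3 lower in del-56. Over all genes, 40.7% were called in del-4 and 39.7% in del-56. INHBB, the inhibin and activin beta-B subunit, fell from 772 normalized counts in WT to 88.3 in del-4 and 277 in del-56 (log2 fold changes -3.13 and -1.47, limma adjusted p = 2.9e-11 and 4.3e-08). As with TMEFF2, the level in del-4 was the lower of the 2 clones. The EGF-family receptor ERBB4 fell by 0.68 and 1.58 (limma adjusted p = 0.010 and 2.4e-05), and PDGFA, the PDGF A chain, rose by 0.93 and 0.94 (limma adjusted p = 1.2e-06 and 1.1e-05). TMEFF1, the paralog, had 67.0, 45.0 and 75.2 mean normalized counts in del-4, del-56 and WT, and its log2 fold changes of -0.16 and -0.70 did not pass (limma adjusted p = 0.69 and 0.065).

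HPN was nearly level across the clones. It lies on chromosome 19 at 35040506-35066573, on the plus strand (ENSG00000105707.15). Its normalized count was 8949, 9208 and 8957 in WT, 10050, 9715 and 9579 in clone del-4 and 9619, 9342 and 8971 in clone del-56. The del-4 libraries lay above WT, and del-56 overlapped both. The log2 fold change of 0.11 in del-4 (95% interval 0.038 to 0.19, limma adjusted p = 0.017) was lost when libraries were scaled to the same total, at 0.045 (limma adjusted p = 0.36), without del-4 replicate 1, at 0.094 (limma adjusted p = 0.080), and without WT replicate 3, at 0.11 (limma adjusted p = 0.064). In del-56 the log2 fold change was 0.042 (95% interval -0.040 to 0.13, limma adjusted p = 0.43). The antisense RNA HPN-AS1 overlaps the gene.

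Among 12 type II transmembrane serine proteases tested, the family of hepsin, 2 were called higher and 2 lower in each deletion clone. Over all genes, 40.7% were called in del-4 and 39.7% in del-56. TMPRSS4 rose from 47.3 normalized counts in WT to 159 in del-4 and 202 in del-56 (log2 fold changes 1.72 and 2.07, limma adjusted p = 1.1e-05 and 1.6e-06). TMPRSS2, the androgen-induced protease, had 12124 ± 836 normalized counts in WT, 8145 ± 568 in clone del-4 and 13303 ± 320 in clone del-56 (SD, n = 3). It fell by 0.57 in del-4 (limma adjusted p = 7.2e-08) and rose by 0.14 in del-56 (limma adjusted p = 0.027), and like TMEFF2 its del-4 level was below that of del-56, by a log2 difference of -0.71 (limma adjusted p = 2.8e-09). TMPRSS2 was named for its known role, not for its size of change. TMPRSS7 rose by 1.24 in del-4 (limma adjusted p = 0.038) from only 12.8 normalized counts in WT. TMPRSS11E fell by 0.60 in del-56 (limma adjusted p = 0.0050).

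Of 11 inhibitors, substrates and the receptor tied to hepsin, 0 were higher and 2 lower in del-4, where 40.7% of all genes were called. In del-56, 1 was higher and 3 lower, where 39.7% were called. MST1, PLAUR and LAMB3 had log2 fold changes between -0.44 and 0.40 that did not pass in either clone. SPINT1 and SPINT2 are named as the known inhibitors of hepsin, not for their size of change. SPINT2 fell by 0.16 and 0.17 (limma adjusted p = 0.0028 and 0.0013), while SPINT1 stood at 0.091 in del-4 (limma adjusted p = 0.066) and rose by 0.15 in del-56 (limma adjusted p = 0.012). MET, the receptor of hepatocyte growth factor, which hepsin can activate, had 272 normalized counts in WT, 278 in clone del-4 and 92.9 in clone del-56. For MET the log2 fold change was 0.031 in del-4 (limma adjusted p = 0.89) and -1.55 in del-56 (limma adjusted p = 7.0e-06).

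TRPM8 was the member that rose in both deletion clones. It lies on chromosome 2 at 233917373-234019522, on the plus strand (ENSG00000144481.17). Its normalized count was 2354, 2342 and 2340 in WT, 4921, 4627 and 4685 in clone del-4 and 5748, 5904 and 5947 in clone del-56. The WT libraries were within a few counts of each other, and the lowest deletion library was far above them. The mean rose from 2345 ± 7.85 in WT to 4744 ± 156 in del-4 and 5866 ± 105 in del-56 (SD, n = 3). On the log2 scale TRPM8 rose by 1.02 (SE 0.045, limma adjusted p = 7.1e-12) in del-4 and by 1.32 (SE 0.044, limma adjusted p = 2.3e-12) in del-56. Del-56 was also higher than del-4, the log2 difference of del-4 to del-56 being -0.31 (SE 0.043, limma adjusted p = 4.4e-05). Per kilobase of exon the TRPM8 level went from 296 in WT to 598 in del-4 and 740 in del-56, from rank 9129 to 6801 and 6054 of 19905 genes. The FOLH1 count was 30.05-fold that of TRPM8 in WT, 11.7-fold in clone del-4 and 7.84-fold in clone del-56. On the other strand, the noncoding RNAs ENSG00000237581 and ENSG00000286059 overlap TRPM8 over 9290 and 2147 bases. Without the strand setting of the counting, any of their reads in the TRPM8 count cannot be separated.

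The TRPM8 window of 250 bases before the RefSeq start, chr2:233917123-233917372 of GRCh38.p14 on the plus strand, is shown because TRPM8 rose in both clones. Capitals mark a TATA box, TATAAA on either strand, at positions -27 to -22, which 10.8% of promoter windows hold at any position.
TRPM8: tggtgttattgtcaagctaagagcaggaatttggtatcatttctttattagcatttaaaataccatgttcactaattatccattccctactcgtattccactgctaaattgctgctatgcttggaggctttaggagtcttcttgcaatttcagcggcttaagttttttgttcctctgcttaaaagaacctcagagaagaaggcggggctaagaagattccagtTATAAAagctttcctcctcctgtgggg
The window had 40% G and C and 3 CpG, and 29.4% of all promoter windows had no more CpG than this. RefSeq lists 6 starts for TRPM8, and the window printed ends just before the GENCODE start. Among the 6 members whose promoter window was examined, STEAP4 held a GC box at -44 to -39. HPN held a CCAAT box at -65 to -61 and GC boxes at -41 to -36 and -29 to -24. None of the 6 windows held the palindromic androgen response element, its half-site AGAACA, the FOXA core TGTTTAC or the HOXB13 site CCAATAAA on either strand, letters that occur in 0.0029%, 12.4%, 2.98% and 0.864% of promoter windows.

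Of 14 other TRPM and prostate calcium channel genes tested in del-4, 0 were called higher and 5 lower, where 20.5% and 20.2% of all genes were. Of 13 tested in del-56, 1 was higher and 6 lower, where 19.2% and 20.5% of all genes were, with TRPM2, TRPM4, ORAI1, ORAI3 and STIM1 lower in both. TRPM4, a calcium-activated cation channel, fell from 8558 ± 340 normalized counts in WT to 6048 ± 208 in del-4 and 5239 ± 348 in del-56 (SD, n = 3). TRPM4 fell by 0.50 on the log2 scale in del-4 (limma adjusted p = 2.5e-08) and by 0.71 in del-56 (limma adjusted p = 1.7e-08). ORAI3, a store-operated channel subunit, fell by 0.43 and 0.33 (limma adjusted p = 0.0014 and 0.028). TRPM5 and TRPM3 were above WT in mean in both clones and did not pass (limma adjusted p = 0.087 and 0.30 for del-4, 0.29 and 0.25 for del-56).

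The neighbourhood of each gene was examined by the 10 nearest expressed genes on each side. For the neighbours of FOLH1 the median log2 fold change was 0.088 for del-4 and 0.10 for del-56, 2 of 20 were called lower in each clone and 9 and 8 were called higher, where 19.2% to 20.5% of all genes were called in each direction, and only P2RX3 in del-4, at -0.44, was further below 0 than FOLH1. The neighbours on the side of P2RX3 lay far off, at 8.15 to 8.56 Mb from FOLH1, and those on the other side at -1.73 to -0.12 Mb. Most neighbours of TRPM8 lay below WT. Of 20 neighbours 17 had a value below 0 in each clone, with medians of -0.26 and -0.43, and none rose as far as TRPM8. The upstream neighbours of TRPM8 include 8 UGT1A genes, which share exons and are not separate measurements. The genes around STEAP1, STEAP2 and STEAP4 were lower too, with medians of -0.20 to -0.22 in del-4 and -0.26 to -0.28 in del-56. The median over the other chromosome 7 genes with a mean of at least 10 was about -0.039 in each clone. The windows of these STEAP genes hold mostly the same genes, so they are not separate measurements. For STEAP2, 14 of 20 neighbours were called lower in del-4 and 11 in del-56, windows that hold STEAP1 and STEAP4 themselves, and 7 and 6 had fallen further than STEAP2. Around TMEFF2 the medians were -0.16 and -0.24, close to those of chromosome 2 in del-4 (-0.15) and somewhat below it in del-56 (-0.15). Only MFSD6, at -1.26, fell further than TMEFF2 in del-4, but 8 of 20 neighbours did in del-56. PSCA and HPN neighbours had medians between -0.095 and 0.047. P2RX3 and MFSD6 were named after their values were seen.

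**Figure D4:**
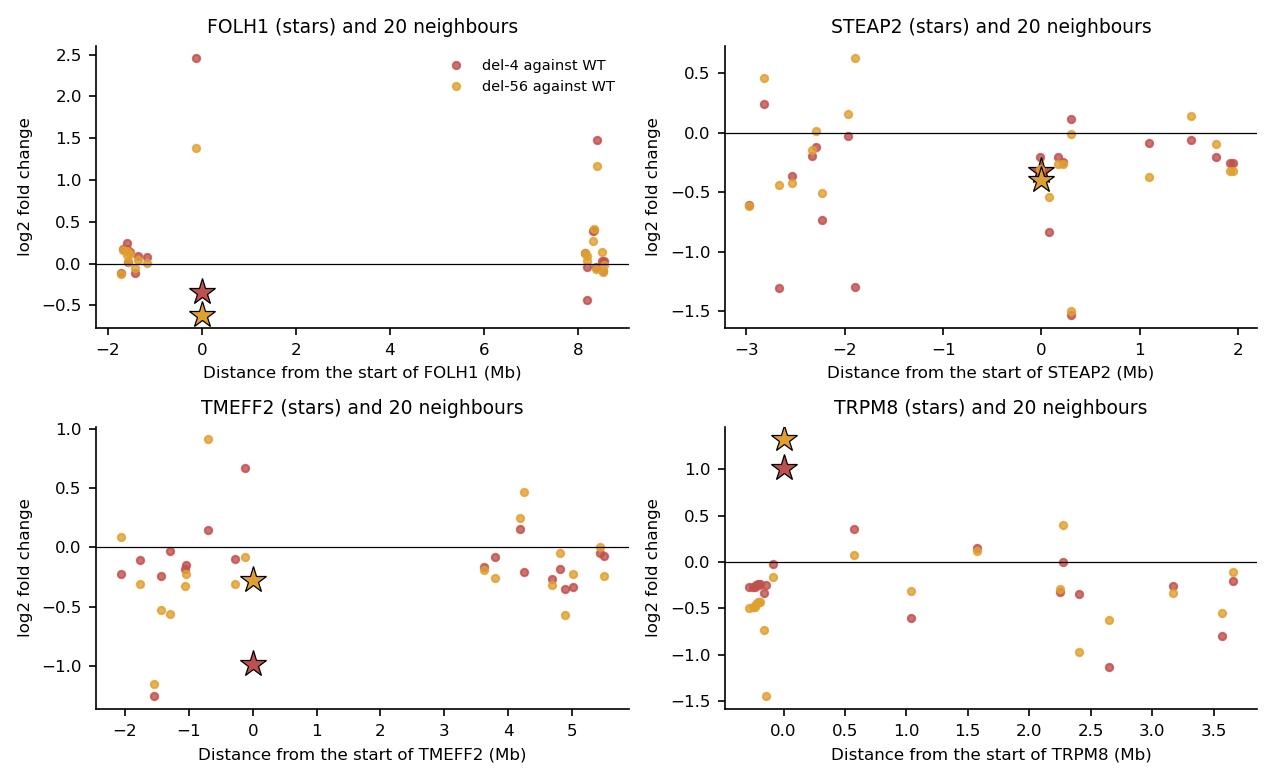
Log2 fold changes (vertical axes) of FOLH1, STEAP2, TMEFF2 and TRPM8 (stars) and of the 10 nearest expressed genes on each side (dots), against the distance from the start of the member in megabases (horizontal axes), for del-4 and del-56 against WT. The TRPM8 stars lie above all neighbours and the FOLH1 stars below all but 1 of them, while the STEAP2 stars lie among dots that are mostly below 0.

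The genes with the pattern most like each member were ranked by Pearson r of log2 of the normalized count plus 1 over the 9 libraries, among about 13085 genes with a mean of at least 100. The libraries fall into 3 clones, so r mostly reflects the 3 clone means and is given as a description. For FOLH1 these were SVIP (0.995), STOML1 (0.994) and HIBADH (0.993), and for TRPM8 they were PIK3R3 (0.997), GNAI1 (0.996) and PARVA (0.996). For TMEFF2 they were DCBLD2 (0.995), the water and glycerol channel AQP3 (0.993) and the carbonic anhydrase CA12 (0.991). For STEAP1 they were ANG, ABHD10 and SDC2 (0.991 to 0.994), for STEAP2 UNKL, NADK2 and USP31 (0.988 to 0.990), and for PSCA ANKRD11, AP3D1 and TXNDC11 (0.973 to 0.980). For STEAP4 they included EPB41L2 (0.977) and MEX3B (0.971), and for HPN, whose levels varied least, HOMER3, PUSL1 and CUX1 (0.937 to 0.974). Many genes shared these clone patterns: 387 had an r above 0.95 with TRPM8 and 201 with FOLH1, against 1 with HPN.

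Among regulators of prostate genes, FOXA1 and HOXB13 passed the test in neither clone, while KDM1A and GRHL2 rose in both. FOXA1, a pioneer factor that opens chromatin, had 38785, 41437 and 39353 mean normalized counts in del-4, del-56 and WT, with log2 fold changes of -0.020 and 0.075 (limma adjusted p = 0.76 and 0.26). HOXB13, a homeobox factor tied to FOLH1 expression, had log2 fold changes of 0.037 and 0.064 (limma adjusted p = 0.42 and 0.19). The histone demethylase gene KDM1A rose by 0.47 and 0.63 (limma adjusted p = 6.7e-09 and 7.4e-10), and GRHL2 by 0.28 and 0.26 (limma adjusted p = 9.0e-05 and 3.1e-04). In all, 5 of 12 such regulators were higher and 2 lower in del-4, where 40.7% of all genes were called. In del-56, where 39.7% were called, 4 were higher and 2 lower, with SPDEF and EZH2 lower in both clones.

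Androgen-induced genes, to which TRPM8, STEAP4 and TMEFF2 were assigned in the list used here, did not share a direction. Of 19 tested, 8 were higher and 7 lower in del-4, where 40.7% of all genes were called. In del-56, 10 were higher and 5 lower, where 39.7% were called. KLK4, FKBP5, PMEPA1, NDRG1 and TRPM8 were among those higher in both clones, and KLK2, SPDEF, TMEFF2 and NCAPD3 were lower in both. KLK2, a kallikrein, fell by 0.71 and 0.53 (limma adjusted p = 4.8e-08 and 8.2e-06). KLK3, which encodes PSA, rose by 0.25 in del-4 (limma adjusted p = 2.9e-04) and fell by 0.39 in del-56 (limma adjusted p = 1.1e-05).

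Of other surface proteins used as tumour targets, 4 of 31 were higher, 10 lower and 17 not called in del-4, where 40.7% of all genes were called. In del-56, 3 of 32 were higher, 11 lower and 18 not called, beside 39.7% of all genes. NECTIN1, CLDN3, CLDN4, TFRC and CDH1 were among those lower in both clones and L1CAM was higher in both. The tight-junction gene CLDN3 fell from 5659 normalized counts in WT to 1244 in del-4 and 1332 in del-56 (log2 fold changes -2.19 and -2.09, limma adjusted p = 2.1e-14 and 2.1e-12). The adhesion molecule gene L1CAM rose from 14.99 to 46.4 and 55.3 (log2 fold changes 1.59 and 1.83, limma adjusted p = 0.0031 and 0.0011). MUC1 rose by 1.88 in del-4 (limma adjusted p = 0.0046) from 9.26 normalized counts in WT and stood at 0.71 in del-56 (limma adjusted p = 0.42). The median of the list was -0.072 for del-4 and -0.0022 for del-56, nearer to 0 than that of the 8 prostate antigens.

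**Figure D5:**
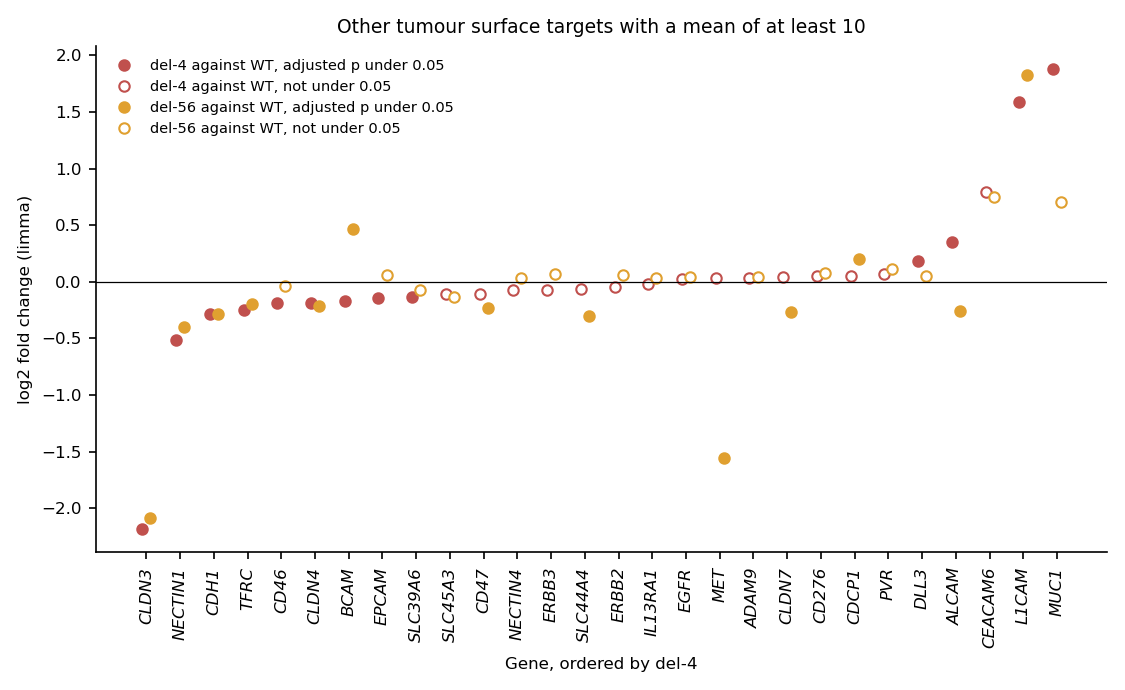
Log2 fold changes (vertical axis) of other tumour surface targets with a mean of at least 10 normalized counts, all but 1 of them drawn, ordered along the horizontal axis by the value in del-4, for del-4 and del-56 against WT. Filled dots have a limma adjusted p under 0.05 and open dots do not. CLDN3 is the lowest of those drawn in del-4, at -2.19, and MUC1 and L1CAM the highest, at 1.88 and 1.59.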

How the data were processed

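RNA-seq was measured in 9 LNCaP libraries, 3 cultures each of del-4, del-56 and WT. The authors checked reads with FastQC 0.11.8, aligned them to GRCh38 with STAR 2.71a and counted them on GENCODE 38 protein-coding genes with bedtools 2.27.1 (Trim Galore 0.6.5 and SAMtools 1.8 are also in the submitters' processing notes). Before deposit, the authors divided the reads of a gene by a DESeq2 size factor, so the deposited signal values are counts scaled between libraries. Sums of 91074556 to 118877134 reads per library were recovered from the step of the values, all whole within 0.01. In 3 libraries the step was close to 1, where this check is weak, so reads were used for depth and floors alone. Floors cover counting error only.

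Identifiers were matched without version to GENCODE 44 (19923 of 19984), which also gave positions and exon lengths. Whether introns were counted is not given in the sources used here, so levels per kilobase of exon are approximate. Genes whose normalized counts averaged 1 or more in the 6 libraries compared were fitted with limma 3.58.1 in R 4.3.3 on log2(normalized count + 1) with a variance trend, without a replicate block, and tested on simulated data. All p-values were Benjamini-Hochberg adjusted over all genes tested, at a threshold of 0.05. All comparisons are two-sided. P-values measure the spread between 3 cultures of each clone, not between clones.

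All 8 members were named. Beside them, up to 4 genes were named per list, those with the largest mean absolute log2 fold change where the mean was 10 or more, together with STEAP1B, FOLH1B, FOXA1 and HOXB13. Some genes that this rule names are not reported here. Annotated genes that overlap a member were also named, and some that adjoin one. Members and lists were chosen with earlier results of these data known. List counts were made on the deposited scaling. Promoter windows are from RefSeq (GRCh38.p14) and were examined for 6 of the 8 members. PSCA, on chromosome 8, was left out of this step by rule, and no window of FOLH1 was examined. Alternatives were the pseudocount, the filter, the scaling, the thresholds, a fit of all 9 libraries, a replicate block and leaving out each replicate.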

Additional observations from a re-analysis of the deposited data

Results flagged for a closer look

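The del-4 and del-56 effects against WT differed by a direct test of the deletion clones for 5 of the 8 genes, by limma over all genes with an adjusted p under 0.05, beside 19.9% of all genes tested. The log2 difference of del-4 to del-56 was 0.27 for FOLH1 and 0.11 for STEAP1, which were lower in del-56 than in del-4. It was -1.92 for STEAP4, -0.71 for TMEFF2 and -0.31 for TRPM8, which were lower in del-4. Every del-4 library lay on the same side of every del-56 library for each of these 5 genes. The STEAP1 difference passed narrowly and was lost under most alternatives. No test for an outlying library was made, since each clone had 3 libraries.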

How the results depend on the processing

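Of 336 alternative values of the log2 fold changes of the 8 genes, 318 kept their direction and their side of the threshold, 18 no longer passed and 0 reversed, and the 18 belong to STEAP4 and HPN in del-4 against WT and to STEAP1 between the deletion clones. The members called higher in del-4 against WT fell from 2 to 1 under the same total, and were 1 to 2 without single replicates. Those called higher in del-4 against del-56 fell from 2 to 1 under pseudocount 0.5, no filter, the same total and quantile normalization, and were 1 to 2 without single replicates. With the thresholds of the study, the genes called were 1012 in del-4 and 1038 in del-56 against WT and 747 between the deletion clones, the members called higher were 1 in del-4 against WT and 0 between the clones, and the members called lower were 1, 0 and 1 in the same order of comparisons. The genes called between the deletion clones ranged from 2268 (without del-4 replicate 3) to 3537 when single replicates were left out. The cause was not tested. Same-numbered libraries of different clones did not deviate together (r -0.053 to 0.063 over 9 pairs, against -0.054 to 0.044 over 18 other pairs), so the numbers were not taken as pairs. With a replicate block, 7038 genes were called in del-4 against WT, 6035 in del-56 and 3393 between the clones, the members called higher between the clones fell to 1 and STEAP1 had a limma adjusted p of 0.062, and no other call of a member changed. The count models planned on recovered reads were not run. Depth limits STEAP4 alone among the 8 genes, and no statement separates EPCART loss from clone.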
